A study of Mus musculus with 6 samples.

Results

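Primary (azurophil) granules are made in promyelocytes, the stage at which a myeloid progenitor commits to the neutrophil lineage, and they hold the peroxidase and the serine proteases with which neutrophils kill microbes. The 8 genes described here were chosen by name as azurophil granule and promyelocyte genes: Mpo, Elane, Prtn3, Ctsg, Ms4a3, Cst7, Nkg7 and Igsf6. All 8 were among the 25033 gene symbols of the series, and all 8 were among the 12978 that passed the filter on low counts. Transcription of the granule genes starts in granulocyte and monocyte progenitors under C/EBP, PU.1, RUNX1 and MYB and ends before the secondary granules are made. The transcripts of the granule genes therefore mark early myeloid cells and not mature neutrophils. Of the members, Nkg7 and Cst7 are also made by cytotoxic lymphocytes, and Igsf6 also by dendritic cells.

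The study profiled RNA of GFP+ cells labelled as hematopoietic stem cells (HSCs) and sorted from bone marrow of C57BL/6J mice of 6 months. The animals had received HSCs treated with a miR-31-5p inhibitor (3 libraries) or with a control RNA (3 libraries), and transplantation was common to both groups. The labels do not say what carried GFP, how long after transplantation the cells were sorted, or whether each library had its own animal. P-values therefore reflect the variation among these 6 libraries and no more, and that variation may be technical. Libraries held 16873188 to 19496200 counts in the inhibitor group and 19866738 to 21245861 in the control group. Control library 1 stood apart most: its chi-square per degree of freedom against the other controls was 14.86 and 16.78, where pairs of inhibitor libraries gave 3.04 to 4.24. The precursor ribosomal RNA gene Rn45s had 3145, 2018 and 1784 counts in inhibitor libraries 1 to 3, against 20039, 3667 and 61656 in control libraries 1 to 3. With it and the 50 most abundant genes left out of the library totals, all 8 members were still called lower. Stem and progenitor markers were unevenly present. Kit had 406 ± 5.11 CPM in inhibitor libraries and 401.7 ± 20.7 CPM in control libraries (counts scaled to library size, with TMM between libraries; mean ± SD, n = 3 each here and below), and neither Kit nor Cd34 (387.4 ± 13.1 CPM in inhibitor and 362.6 ± 12.7 CPM in control libraries) passed the test described below, although Cd34 did without control library 1. Procr, which marks HSCs, had 7.54 ± 1.02 CPM in inhibitor libraries and 1.06 ± 0.11 CPM in control libraries, and Hoxb5 had no count in any library.

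The inhibitor was directed at miR-31-5p. MicroRNAs lower the transcripts whose 3′ UTR pairs with their seed. The precursor gene Mir31 had a count of 0 in every library, and a kit for messenger RNA does not check the level of the mature form. Its mature sequence (RefSeq, GRCm38.p6, the build also called mm10) lies at chr4:88910614-88910635 on the minus strand and is shown with the seed, bases 2 to 8, in capitals.
mmu-miR-31-5p: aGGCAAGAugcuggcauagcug
The reverse complement of that seed in DNA letters, TCTTGCC, was looked for in the members' 3′ UTRs, taking the longest that GENCODE release M21 gives for each gene. It occurred in 0 of the 8, whose 3′ UTRs ran from 78 bases in Ctsg to 1394 in Igsf6, and in 13.9% of the 12266 tested genes with a 3′ UTR. After Igsf6 the longest was that of Cst7 with 447 bases. The tested genes were not matched to the members for length, and the difference was not tested.

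The promoters of the members are shown because all 8 transcripts were lower in the inhibitor group. Any part of the promoters in that fall was not tested. Elane and Prtn3 are neighbours on chromosome 10, separated by 3137 bases, and the 250 bases before the start of each (RefSeq, GRCm38.p6) are given 5′ to 3′. Capitals mark GGAAGT, a core recognised by ETS family factors, to which PU.1 belongs.
Elane, chr10:79886062-79886311, plus strand: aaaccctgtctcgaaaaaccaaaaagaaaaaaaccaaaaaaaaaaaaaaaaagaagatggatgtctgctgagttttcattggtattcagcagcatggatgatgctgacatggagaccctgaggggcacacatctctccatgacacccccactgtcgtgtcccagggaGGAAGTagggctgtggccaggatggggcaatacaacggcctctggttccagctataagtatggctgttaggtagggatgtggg
Prtn3, chr10:79879417-79879666, plus strand: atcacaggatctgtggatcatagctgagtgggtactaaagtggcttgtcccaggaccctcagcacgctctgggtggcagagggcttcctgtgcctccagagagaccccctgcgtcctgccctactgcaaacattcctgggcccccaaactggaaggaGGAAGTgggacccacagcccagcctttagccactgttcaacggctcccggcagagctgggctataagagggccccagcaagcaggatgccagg
In both, GGAAGT stood on the sense strand within 100 bases of the start, beginning 83 bases before it in Elane and 93 in Prtn3. Both also held AACGG, a match to the MYB core AACNG, 50 and 55 bases before the start, and TATAA 31 and 32 bases before it. Of the other members, 4 had GGAAGT within 250 bases, again on the sense strand, and the 62 bases around it follow.
Mpo, chr11:87793534-87793595, plus strand: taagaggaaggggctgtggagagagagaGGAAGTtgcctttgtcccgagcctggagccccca
Ctsg, chr14:56102746-56102807, minus strand: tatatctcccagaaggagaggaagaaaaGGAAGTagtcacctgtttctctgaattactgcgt
Ms4a3, chr19:11640873-11640934, minus strand: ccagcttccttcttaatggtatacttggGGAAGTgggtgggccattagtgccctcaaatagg
Cst7, chr2:150570325-150570386, plus strand: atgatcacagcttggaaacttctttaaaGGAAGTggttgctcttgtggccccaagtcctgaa
These matches began 222 bases before the start in Mpo, 205 in Ctsg, 55 in Ms4a3 and 62 in Cst7. Nkg7 and Igsf6 had none in the 250 bases searched. For Igsf6 these were chr7:121074531-121074780, part of which lies inside the gene span that ends at 121074581. Bases further before that gene were not searched. Searched on both strands, GGAAGT was in 6 of 8 member promoters, in 23.6% of the 13074 promoters of tested genes and in 19.7% of all 32851 promoters of that length. The MYB core AACNG was in 7 of 8 members, 72.1% of tested and 74.2% of all promoters. TGTGGT (the RUNX core) was in 3 of 8 members, 11.1% of tested and 14% of all promoters. TTNNGNAA (a C/EBP pattern, which overlaps GGAAGT in Ms4a3) was in 3 of 8 members, 29% of tested and 36.8% of all promoters. TATAA was in 3 of 8 members, 12.4% of tested and 22.8% of all promoters. The letters were chosen with the promoters in view, and a match is a description of the sequence only.

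All 8 genes were lower in the inhibitor group, by 1.12- to 1.41-fold, with a median log2 change of -0.40 against -0.01 over all tested genes. Each passed an adjusted p of 0.05, and in each the 3 inhibitor libraries lay below the 3 control libraries. For comparison, 20.1% of all tested genes passed in the lower direction, 20.4% in the higher direction and 40.5% in either, and 26.5% had groups that did not overlap with the inhibitor libraries below. In bulk RNA, fewer cells of a type and less of a transcript per cell cannot be told apart. Together the 8 genes took 0.578, 0.576 and 0.591% of all counts in inhibitor libraries 1 to 3, against 0.75, 0.68 and 0.716% in control libraries 1 to 3.

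**Figure D1:**
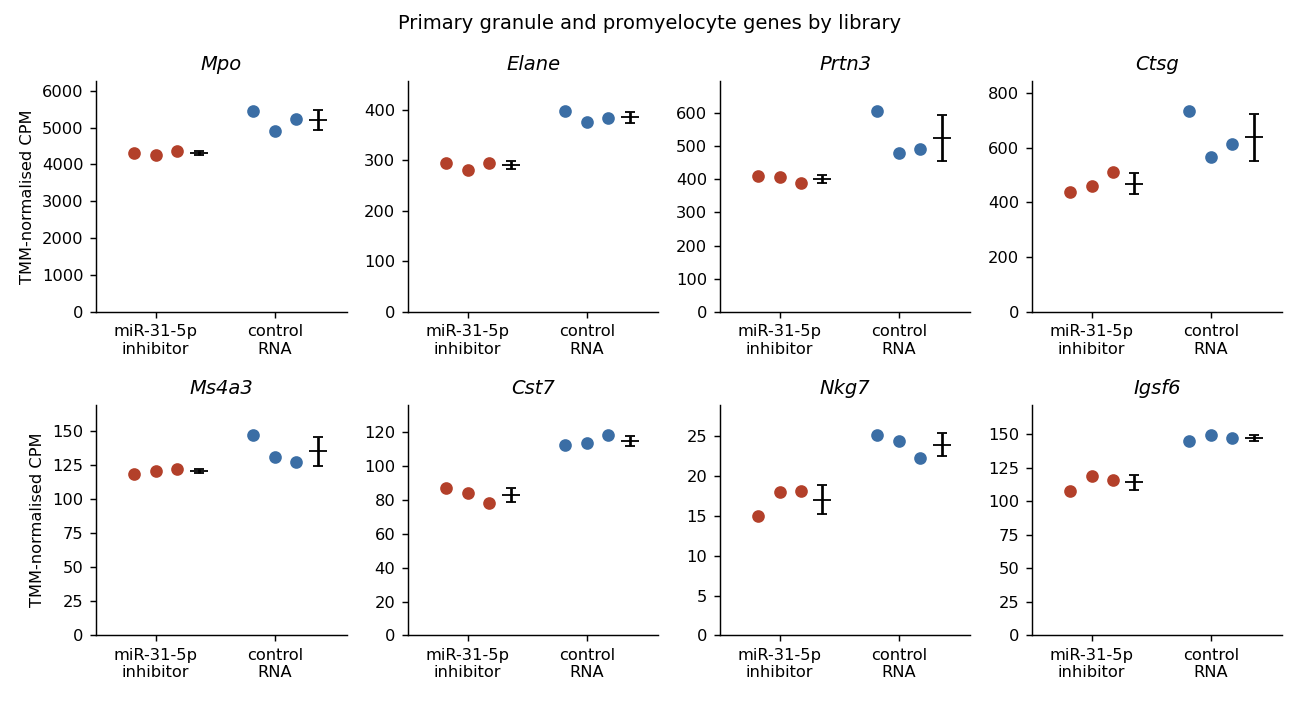
TMM-normalised CPM (linear axes from 0) of the 8 genes in each library, inhibitor libraries on the left and control libraries on the right of each panel; points are libraries 1 to 3 from left to right, and the bars beside them are the mean ± SD (n = 3). In every panel the inhibitor libraries lie below the control libraries, with the gap that is narrowest relative to the level in Ms4a3.

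The peroxidase came first in abundance. Mpo (chromosome 11, 87793784 to 87804412, plus strand) encodes myeloperoxidase, which makes hypochlorous acid in the phagosome. Its level was 4312, 4263 and 4364 CPM in inhibitor libraries 1 to 3, against 5445, 4910 and 5243 CPM in control libraries 1 to 3. The inhibitor libraries lay within a narrow band and the controls above it, with control library 2 the lowest of them. The log2 change was -0.27 ± 0.05 (± SE), or 17% lower, with an adjusted p = 0.000569 (edgeR quasi-likelihood test, Benjamini-Hochberg adjustment). A lncRNA annotated as Gm34064 overlaps the start of Mpo, and reads of overlapping genes could not be told apart.

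The 3 serine proteases, which are stored active in the granule bound to proteoglycan, all fell. Elane (chromosome 10, 79886312 to 79888216, plus strand) encodes neutrophil elastase. It had 294.5, 280.6 and 294 CPM in inhibitor libraries 1 to 3, against 397, 375.4 and 382.7 CPM in control libraries 1 to 3. Both groups were tight and far apart relative to their spread, and the change was -0.41 ± 0.05 (adjusted p = 2.08e-05, edgeR quasi-likelihood test, Benjamini-Hochberg adjustment). Prtn3 (chromosome 10, 79879667 to 79883174, plus strand) encodes proteinase 3, the autoantigen of cytoplasmic anti-neutrophil antibodies in humans. Its values were 410, 405.9 and 388.7 CPM in inhibitor libraries 1 to 3, against 606.1, 480.9 and 490.6 CPM in control libraries 1 to 3, so that control library 1 stood well above the other controls. The change was -0.39 ± 0.08 (adjusted p = 0.00124, edgeR quasi-likelihood test, Benjamini-Hochberg adjustment), and -0.28 without control library 1.

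Ctsg (chromosome 14, 56099885 to 56102574, minus strand) encodes cathepsin G, a protease with chymotrypsin-like activity. It had 437.5, 458.9 and 509.8 CPM in inhibitor libraries 1 to 3, against 733.7, 567.1 and 612.6 CPM in control libraries 1 to 3. Both groups were spread, control library 1 was again the highest, and inhibitor library 3 came nearest to the controls. The change was -0.44 ± 0.09 (adjusted p = 0.00138, edgeR quasi-likelihood test, Benjamini-Hochberg adjustment). It was -0.33 without control library 1 and -0.28 with control libraries 1 and 3 both left out.

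Among the regulators and membrane proteins, Cst7 (chromosome 2, 150570415 to 150578944, plus strand) encodes cystatin F, an inhibitor of cathepsin C, the peptidase that activates the granule serine proteases. Cst7 had 86.9, 84 and 78.4 CPM in inhibitor libraries 1 to 3, against 112.8, 113.9 and 118.6 CPM in control libraries 1 to 3. It did not share the high value of control library 1, and its change of -0.47 ± 0.06 ranged from -0.50 to -0.43 when any 1 library was left out (adjusted p = 1.64e-05 with all 6, edgeR quasi-likelihood test, Benjamini-Hochberg adjustment). Nkg7 (chromosome 7, 43437138 to 43438246, plus strand) encodes a membrane protein of cytotoxic granules that natural killer and T cells also make. It was the least abundant member, with 292, 309 and 306 counts in inhibitor libraries 1 to 3 and 501, 487 and 474 counts in control libraries 1 to 3. Scaled, these were 15, 18 and 18.1 CPM in inhibitor libraries, against 25.1, 24.3 and 22.3 CPM in control libraries, so the groups stood apart although inhibitor library 1 lay below its fellows. The change was -0.49 ± 0.10, with the widest error of the 8, and it ranged from -0.54 to -0.41 when any 1 library was left out (adjusted p = 0.00152, edgeR quasi-likelihood test, Benjamini-Hochberg adjustment).

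Igsf6 (chromosome 7, 121064067 to 121074581, minus strand) encodes an immunoglobulin superfamily receptor of myeloid and dendritic cells. It had 107.4, 118.7 and 115.7 CPM in inhibitor libraries 1 to 3, against 144.7, 149.4 and 147.2 CPM in control libraries 1 to 3, a clear separation with the controls close together. The change was -0.37 ± 0.06 (adjusted p = 0.000108, edgeR quasi-likelihood test, Benjamini-Hochberg adjustment). The gene lies inside the span of Mettl9 on the opposite strand and shares 0 exon bases with it, and Mettl9 itself had a log2 change of 0.00 ± 0.07, which did not pass.

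Ms4a3 (chromosome 19, 11629499 to 11640851, minus strand), a membrane-spanning gene whose activity traces the granulocyte-monocyte progenitor in mice, showed the smallest difference. It had 118.6, 120.6 and 121.6 CPM in inhibitor libraries 1 to 3, against 147, 130.6 and 127.3 CPM in control libraries 1 to 3. The groups did not overlap in CPM, but control libraries 2 and 3 lay close to the inhibitor group. The change of -0.17 ± 0.06 passed narrowly (adjusted p = 0.0429, edgeR quasi-likelihood test, Benjamini-Hochberg adjustment, range over the alternatives 0.0323 to 0.165). It was -0.10 and did not pass without control library 1, and it also failed when any 1 inhibitor library was left out, with control libraries 1 and 3 both left out, with DESeq2 and with limma-voom. The other 7 members passed under all 14 alternatives.

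**Figure D2:**
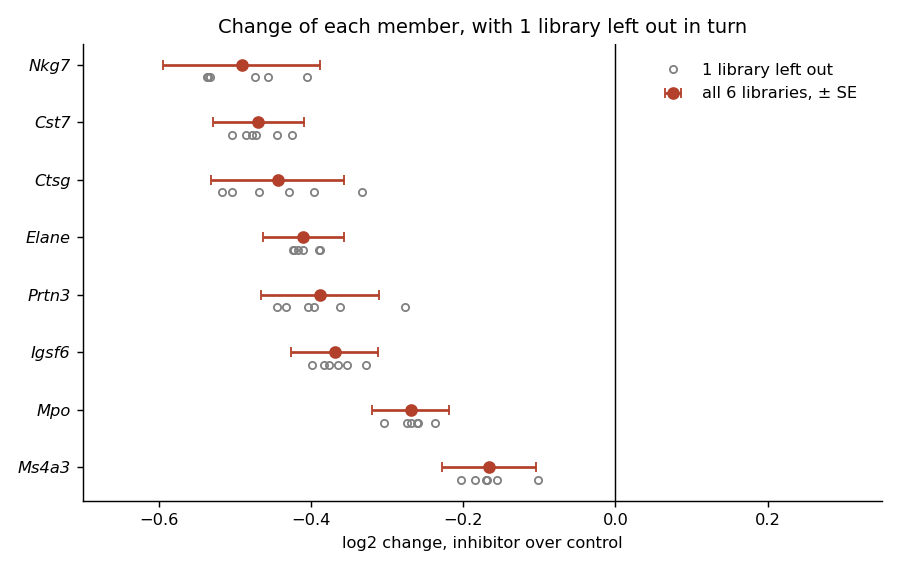
Log2 change (inhibitor over control) of each gene, ordered by the estimate from all 6 libraries with the most negative at the top; filled points with bars are the estimate ± SE from all 6 libraries, and open circles below are the estimates with 1 library left out in turn. Every estimate lies left of 0, between -0.54 and -0.10; for Mpo, Prtn3, Ctsg and Ms4a3 the circle nearest to 0 is the one without control library 1.

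Control library 1 had the highest CPM of all 6 libraries in 6 of the 8 genes, the exceptions being Cst7 and Igsf6, which were highest in control libraries 3 and 2. Deviations from the group mean in control library 1 were 0.21 on the log2 scale for both Prtn3 and Ctsg, 0.13 for Ms4a3, 0.07 for Mpo and Nkg7 and 0.04 for Elane. In the inhibitor group no library led in this way: libraries 1, 2 and 3 held the highest value of 3, 1 and 4 genes.

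Levels of different genes can be compared only per transcript length, for which the deposited RPKM values (counts divided by transcript length and library total) were used. Mpo had 1692 ± 21.5 RPKM in inhibitor libraries and 1960 ± 78.9 in control libraries. By RPKM it ranked 14th of all listed genes in each inhibitor library and between 8 and 10 in the control libraries. Below it came Ctsg (469.3 ± 38.4 RPKM in inhibitor and 613.4 ± 79 in control libraries), Prtn3 (413.5 ± 10.7 in inhibitor and 520.7 ± 69.4 in control libraries) and Elane (314.6 ± 8.34 in inhibitor and 402.1 ± 16.3 in control libraries). Across libraries, Ctsg and Prtn3 were separated in the inhibitor group, where the lowest Ctsg value was 436.5 and the highest Prtn3 value 420.9 RPKM. Across control libraries their ranges overlapped. Within each of the 6 libraries, however, Ctsg lay above Prtn3, as in control library 1 with 704.5 and 598.8 RPKM. The remaining genes followed in the order Ms4a3, Cst7, Igsf6 and Nkg7, the last with 20.9 ± 2.23 RPKM in inhibitor and 28.3 ± 2.65 in control libraries. From Prtn3 down, the values of genes next to each other in this order did not overlap in either group. The library totals behind RPKM exceeded the summed counts by 0.22 to 0.35% in inhibitor libraries and by 2.82, 0.49 and 8.68% in control libraries 1 to 3, which lowers control RPKM relative to CPM. On the RPKM scale Ms4a3 overlapped between the groups, with 117 to 120.7 in inhibitor and 116.3 to 139.6 in control libraries.

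**Figure D3:**
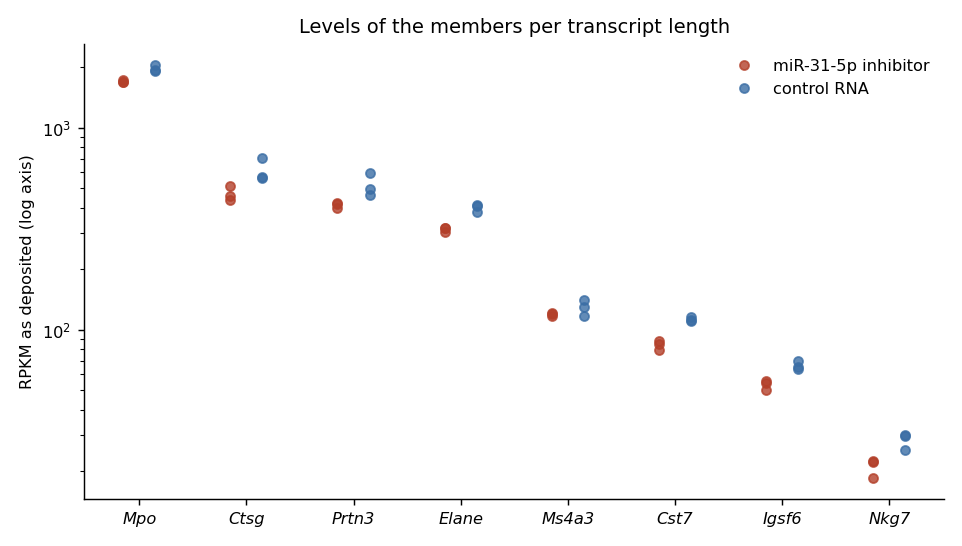
Deposited RPKM of the 8 genes on a logarithmic axis, ordered by their mean in the inhibitor group; red points on the left of each pair are the 3 inhibitor libraries and blue points on the right the 3 control libraries. Mpo lies above the serine proteases, and Ms4a3 is the gene whose groups overlap on this scale.

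The make-up of this transcript pool was compared by giving each gene as a share of the summed CPM of the 8. Mpo made up 74.3 ± 0.27% in inhibitor libraries and 72.55 ± 0.94% in control libraries, and Elane made up 4.99 ± 0.11% in inhibitor and 5.38 ± 0.17% in control libraries. Ms4a3 made up 2.07 ± 0.02% in inhibitor libraries and 1.88 ± 0.09% in control libraries. In these 3 genes the groups did not overlap (exact permutation test, two-sided, p = 0.1, the smallest that 3 against 3 libraries allows, and 0.267 adjusted over the 8 genes). The shares of Prtn3, Ctsg, Cst7, Nkg7 and Igsf6 were lower on average in inhibitor libraries, with groups that overlapped and exact permutation p-values of 0.2 to 0.5. Since this test cannot go below 0.1 with 3 libraries a group, it leaves the make-up of the pool undecided.

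The genes that lie beside the members did not move as one with them. On chromosome 10, Prss57, which encodes a further neutrophil serine protease, had 19.2 ± 2.13 CPM in inhibitor libraries and 16.2 ± 1.25 in control libraries, a change of 0.25 ± 0.11 that did not pass. Cfd, next to Elane, was near 0 in every library. Beside Mpo, the lactoperoxidase gene Lpo had 1.73 ± 0.48 CPM in inhibitor and 0.99 ± 0.33 in control libraries, again not past the threshold, and the eosinophil peroxidase gene Epx was near 0. Near Ctsg, the granzyme gene Gzmb fell to 12.3 ± 1.78 CPM in inhibitor libraries, against 59.2 ± 5.95 in control libraries, a log2 change of -2.27 ± 0.11. The basophil protease gene Mcpt8 (-0.15 ± 0.07) and the mast cell chymase gene Cma1 (0.15 ± 0.06) from the same cluster did not pass. Prss57 passed as higher without control library 1 (0.31) and without inhibitor library 2 (0.33), Lpo without inhibitor library 2 (1.02), and Cma1 without control library 1 (0.22) and with control libraries 1 and 3 both left out (0.21). Of the 12 tested genes on the list of neighbours, 3 fell (Gzmb, Ms4a2 by 0.39 ± 0.08 and the electron transfer gene Etfb by 0.37 ± 0.11) and R3hdm4 rose by 0.32 ± 0.06. Etfb was at -0.13 and did not pass with control libraries 1 and 3 both left out. It also lost the call without inhibitor library 1 (-0.35), without inhibitor library 2 (-0.37) and with no filter on low counts (-0.37), and it was at -0.21 without control library 1. The number higher was 3 without control library 1 and 3 without inhibitor library 2.

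Other genes of the primary granule and the promyelocyte moved both ways. In this list 9 of 23 tested genes were lower and 4 were higher, and the median log2 change was -0.08. Lyz2, the lysozyme gene of granulocytes and macrophages, fell to 1102 ± 46.3 CPM in inhibitor libraries, against 2242 ± 69.6 in control libraries (-1.02 ± 0.05). The mucin gene Muc13 fell by 1.06 ± 0.06 on the log2 scale. Calr, a chaperone needed for folding of myeloperoxidase, fell by 0.49 ± 0.06. Among those that rose, named after their values were seen, were Fcnb, a ficolin of granules (11.9 ± 1.21 CPM in inhibitor and 5.27 ± 0.54 in control libraries, 1.17 ± 0.14), Plbd1 (0.88 ± 0.14) and the lysosomal membrane gene Cd63 (0.19 ± 0.06). Cd63 lost the call without any 1 inhibitor library and without control library 2 or 3 (0.16 to 0.20), and 7 genes of the list were higher without control library 1.

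Of 18 tested genes on the list for assembly, activation and inhibition of granule proteases, 4 passed as lower and 4 as higher (median 0.05). The list is broader than its name. It holds genes that do not act on the proteases themselves, Cxcr2 and Was among them, so its counts do not stand for protease handling alone. Ctsc, which encodes cathepsin C, the enzyme that removes the activation peptide of elastase, proteinase 3 and cathepsin G, fell to 107.3 ± 1.93 CPM in inhibitor libraries, against 177.2 ± 7.89 in control libraries (-0.72 ± 0.06). Ctsc, Srgn and Serpinb1a are also on the list of the preceding paragraph, and Ctsc and Serpinb1a count among the lower genes of both. Slpi, a secreted inhibitor of elastase and cathepsin G, fell by 1.49 ± 0.10 on the log2 scale. Serpinb6a, a cytosolic serpin that in humans inhibits cathepsin G, rose by 1.45 ± 0.11, and the cystatin C gene Cst3 rose by 0.40 ± 0.08. The other genes past the threshold, named after their values were seen, were Serpinb1a (-0.23 ± 0.06) and Was (-0.16 ± 0.05) on the lower side and Ap3b1 (0.31 ± 0.06) and Cxcr2 (0.46 ± 0.16) on the higher side. Serpinb1a lost the call without inhibitor library 3, Was without any 1 inhibitor library or control library 3, and Cxcr2 without inhibitor library 1 or 3 or control library 2 or 3. Serpinb1a (-0.14) and Was (-0.13) also lost it with control libraries 1 and 3 both left out. Srgn, the proteoglycan that binds the proteases in the granule, had 517.9 ± 45.1 CPM in inhibitor and 462.7 ± 6.98 in control libraries and missed the threshold narrowly (0.16 ± 0.06), passing under 7 of 14 alternatives and at 0.09 without inhibitor library 3. The number higher was 7 without control library 1 and 8 with a replicate block, and the number lower was 2 with control libraries 1 and 3 both left out. The plasma serpin genes Serpina1a and Serpina1b had no count in any library.

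The list of transcription factors and the receptor of granulocyte commitment also split, and not all of its genes belong to granulocytes alone. Irf8 and Klf4 are also on the monocyte and dendritic cell progenitor list below. Gata2 is also on the basophil and HSC lists. The counts of this list therefore do not stand for granulocyte factors only. Of 19 tested genes, 7 passed as lower and 3 as higher, and the median was -0.06. Gfi1, a repressor needed for neutrophil maturation, fell to 23.2 ± 2.52 CPM in inhibitor libraries, against 38.5 ± 3.75 in control libraries (-0.73 ± 0.10). Csf3r, the receptor for granulocyte colony-stimulating factor, fell by 0.43 ± 0.06, and Cebpd by 0.47 ± 0.09 (by 0.32 with control libraries 1 and 3 both left out). Cebpa, the C/EBP factor that opens the granule programme, was named after its value was seen. It had 119.2 ± 18 CPM in inhibitor and 170.6 ± 19.9 in control libraries (-0.52 ± 0.11), and without control library 1 it was at -0.43 and did not pass, nor did it with control libraries 1 and 3 both left out (-0.34). Spi1, which encodes PU.1 (-0.07 ± 0.07), Myb (0.10 ± 0.05) and Cebpe (-0.04 ± 0.18) did not pass. The 3 that rose were Nfe2 (0.41 ± 0.06), Irf8 (0.24 ± 0.05) and Runx1 (0.22 ± 0.06), and Runx1 lost the call without inhibitor library 1 and without inhibitor library 2.

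Genes of later neutrophil stages moved both ways, with more of them higher than lower. The list of secondary and tertiary granules and late neutrophils had 21 tested genes, of which 12 passed as higher and 6 as lower (median 0.47). S100a8 and S100a9, the subunits of calprotectin, had 124 ± 3.16 and 124.2 ± 7.11 CPM in inhibitor libraries, against 40.3 ± 2.43 and 40 ± 4.99 in control libraries. Ngp rose by 1.66 ± 0.10 and Il1b, which monocytes also make, by 2.02 ± 0.15. Among the 6 that fell, named after their values were seen, haptoglobin (Hp) fell to 56.5 ± 1.37 CPM in inhibitor libraries, against 120.1 ± 15.6 in control libraries (-1.09 ± 0.08). Cybb, a subunit of the phagocyte oxidase, fell to 254.8 ± 3.93 CPM in inhibitor libraries, against 384.5 ± 35.5 in control libraries (-0.59 ± 0.06). Padi4, which citrullinates histones, fell by 1.54 ± 0.18. The defining secondary granule genes were low: Ltf had 12.2 ± 1.55 CPM in inhibitor and 7.46 ± 0.35 in control libraries, and Camp had 1.88 ± 0.98 CPM in inhibitor and 0.58 ± 0.21 in control libraries. Camp lost the call without inhibitor library 2 (1.20) and with control libraries 1 and 3 both left out (1.40). Retnlg had no count in any library. Over this list the summed level was 1252 to 1284 CPM in inhibitor libraries and 1106 to 1158 in control libraries, and its part in the members' fall was not tested.

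**Figure D4:**
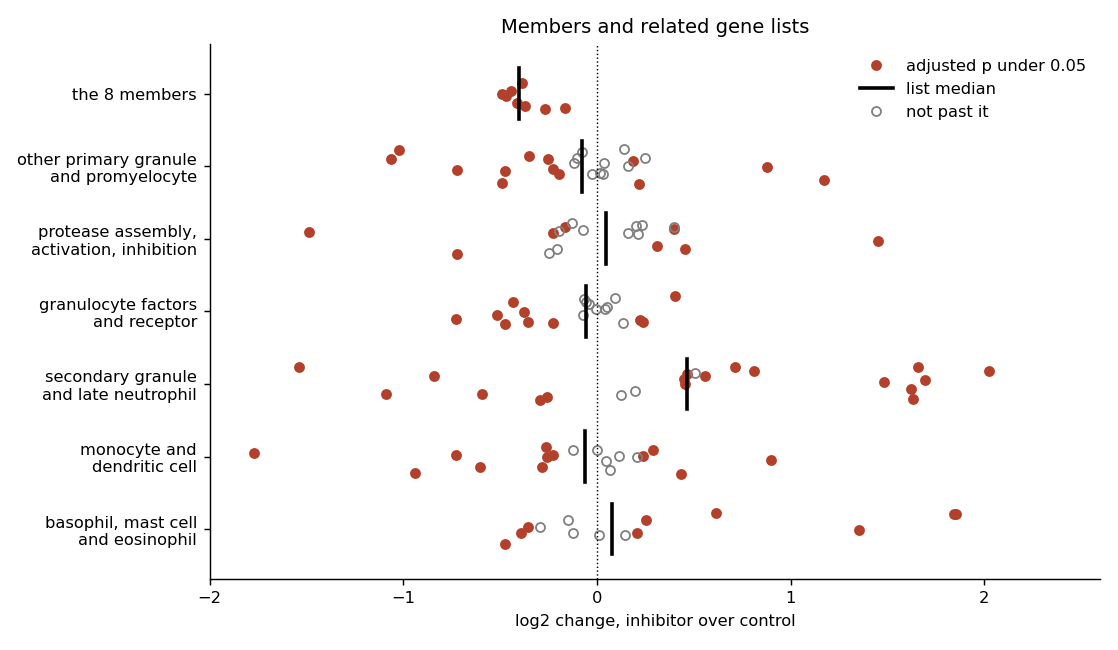
Log2 change (inhibitor over control) of each tested gene in 7 lists, one list to a row, with the vertical position within a row drawn at random; filled points passed an adjusted p of 0.05, open points did not, and the black bar is the median of the list. The 8 members lie between -0.49 and -0.17 with a median of -0.40, and the median of the secondary granule and late neutrophil list is 0.47.

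Markers of other cells that the sorted population could hold moved as well. In the monocyte and dendritic cell progenitor list 8 of 18 tested genes passed as lower and 4 as higher (median -0.06), with a summed level of 2410 to 2468 CPM in inhibitor libraries and 2782 to 2900 in control libraries. F13a1 fell by 1.77 ± 0.06, Ly6c2 by 0.94 ± 0.06 and Fcgr3 by 0.73 ± 0.06 on the log2 scale. Among the genes that rose were Irf8, given above, Itgax (0.43 ± 0.10) and Ms4a6d (0.29 ± 0.09), both named after their values were seen. Both lost the call with control libraries 1 and 3 both left out (0.17 for Itgax and 0.22 for Ms4a6d), and Ms4a6d also lost it without inhibitor library 1 (0.27) and without inhibitor library 2 (0.28). The number lower was 5 without control library 2. In the basophil, mast cell and eosinophil list 6 of 14 tested genes passed as higher and 3 as lower (median 0.08), with a summed level of 1754 to 1830 CPM in inhibitor and 1584 to 1636 in control libraries. Mcpt4 (0.61 ± 0.05) and Prg2 (1.86 ± 0.28) rose, whereas Hdc (-0.48 ± 0.06), Ms4a2 (-0.39 ± 0.08) and Gata2 (-0.36 ± 0.08, and -0.23 with control libraries 1 and 3 both left out) fell.

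Because Nkg7 and Cst7 are also made by cytotoxic lymphocytes, the markers of those cells were read beside them. Of 17 listed genes 5 were tested, 2 of them lower and 1 higher (median -0.06). Gzma had no count in any library, and Prf1, Cd3e, Cd3d, Cd3g and Eomes had at most 3 counts in any of them. The summed level was 82.2 to 93 CPM in inhibitor and 92.9 to 104.5 in control libraries, most of it from Gzmb, Ccl5, which rose by 3.02 ± 0.12, and Klrd1, which fell by 0.50 ± 0.13 (by 0.32 without control library 2 and by 0.79 with control libraries 1 and 3 both left out). Among 6 tested B lineage genes Cd79b (-0.85 ± 0.12), Dntt (-1.75 ± 0.23) and Pax5 (-1.57 ± 0.43) fell, Pax5 not without control library 3 (-1.11) or with control libraries 1 and 3 both left out (-1.07), and 1 gene was higher without inhibitor library 3. Their median was -0.81, with a summed level of 23 to 23.7 CPM in inhibitor and 32.6 to 33.8 in control libraries, and Vpreb3 had no count. In the list of HSC and multipotent progenitor markers, Procr (2.82 ± 0.21), Slamf1 (1.70 ± 0.16), Ctnnal1 (1.24 ± 0.13) and Vwf (1.16 ± 0.06) were among the 5 that rose, and Hlf (-0.92 ± 0.17), Ly6a (-0.41 ± 0.10), Gata2 and Cd48 (-0.35 ± 0.08) fell. The median of its 14 tested genes was 0.10, with a summed level of 1726 to 1794 CPM in inhibitor and 1451 to 1497 in control libraries. Of 13 tested erythroid and megakaryocyte genes 11 were higher and none lower (1 lower with the replicate block, with limma-voom and without inhibitor library 1), with a median of 1.10 and a summed level of 2799 to 2919 CPM in inhibitor and 1240 to 1448 in control libraries. The part of these cell type differences in the members' fall was not tested.

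The genes whose levels followed the members most closely over the 6 libraries were Uhrf1, Hnrnpk, Ciapin1, Ssrp1 and Tut1. Likeness was Pearson's correlation of log2 CPM with the mean centred log2 CPM of the 8, over 9423 genes with a mean of at least 10 CPM, and it was 0.996 to 0.998 for these 5. The correlation includes the difference between the groups, and 720 genes reached at least 0.95. The members' mean was -0.22, -0.18 and -0.17 in inhibitor libraries 1 to 3, against 0.27, 0.14 and 0.15 in control libraries 1 to 3. Uhrf1, for example, had 247.4 ± 7.56 CPM in inhibitor and 344.4 ± 25.8 in control libraries, with a log2 change of -0.48 ± 0.06.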

How the data were processed

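Per the file headers, the authors deposited raw read counts for each RefSeq symbol and, beside them, RPKM values based on the longest transcript length. Per the submitters' processing notes, mm10 was the genome build and bcl2fastq 2.20 among the tools. Per the labels' protocols, Trizol RNA was made into libraries with the VAHTS mRNA-seq V3 kit. Neither aligner nor counter nor counting strand is named in the sources used here. No columns of other samples were present.

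Counts were filtered with edgeR 4.0.16's filterByExpr (minimum count 10, minimum total 15), scaled by TMM (factors 0.985 to 1.008) and tested over all 12978 remaining genes with the robust quasi-likelihood test in R 4.3.3, inhibitor against control, its p-values adjusted by Benjamini-Hochberg and called under 0.05. Standard errors are the log2 change divided by the root of the F statistic. In these libraries 3 counts corresponded to 0.141 to 0.178 CPM. On simulated data for this comparison (12978 genes, 200 of them changed), 23 of 50 genes changed by 1.25-fold, 37 of 50 changed by 1.5-fold and 46 of 50 changed by 2-fold were recovered, and 14 of 12778 unchanged genes were called. In the data 40.5% of tested genes were called, so the Benjamini-Hochberg cut-off was stricter in the simulation. The simulated rates therefore do not carry over directly to the data. Sequences are those of RefSeq for GRCm38.p6. Python 3.11.15 was used for searches and for the exact permutation tests.

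The members and gene lists were chosen with earlier results of these data known. Besides the members, the text names the 4 genes with the smallest p of each list among those past the threshold, genes beside the members on the genome, markers near 0 and the 5 genes most alike, not all of which are printed, and some genes are not reported here. Genes outside that rule, Kit, Cd34, Spi1, Myb, Cebpe, Srgn, Ltf, Camp, Hp, Cybb, Padi4, Gata2, Hlf, Ly6a and Cd48 among them, were chosen after their values were seen. Alternatives were RLE factors, no filter and a stricter filter, the replicate number as a block, DESeq2 1.42.0, limma-voom (limma 3.58.1), leaving out each library, leaving out control libraries 1 and 3 together, and library totals without Rn45s and the 50 most abundant genes.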

Additional observations from a re-analysis of the deposited data

How the results depend on the processing

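Across 14 alternatives the 8 members gave 112 estimates, all below 0, of which 105 kept their side of the threshold. The other 7 were of Ms4a3: -0.12 with control libraries 1 and 3 both left out (adjusted p = 0.165), -0.16 with DESeq2 (0.0669) and -0.16 with limma-voom (0.0519), and those without control library 1 or any 1 inhibitor library, with a range of -0.20 to -0.10 over all libraries left out singly. Left-out libraries gave -0.30 to -0.24 for Mpo, -0.42 to -0.39 for Elane, -0.45 to -0.28 for Prtn3, -0.52 to -0.33 for Ctsg, -0.50 to -0.43 for Cst7, -0.54 to -0.41 for Nkg7 and -0.40 to -0.33 for Igsf6. The number of members called lower was 7 or 8. Over all genes, 2063 to 2849 were called higher and 1877 to 2843 lower. With the replicate block 2831 genes were called higher and 2842 lower and all 8 members passed. Same-numbered libraries of the 2 groups deviated together with correlations of 0.058, 0.008 and 0.037, and 5 of 6 libraries correlated best with their own number. Whether the numbers pair the samples was not settled by these values. The main test did not pair them. For 83 other genes, 1112 of 1160 estimates kept their side, 34 lost it, 14 gained it and 0 reversed. The shares of the 8 genes in their sum kept the direction of their difference without any 1 library. Leaving out TMM cannot change a share, since TMM scales all genes of a library by the same factor. For the same reason, RPKM recomputed from TMM-scaled counts cannot change the order of the genes within a library, and neither is a check. With control libraries 1 and 3 both left out, the lone control is assumed to vary like the inhibitor libraries. The spread covers only these libraries, and 3 libraries a group limit which small changes can be called.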
